A study of Mus musculus with 9 samples.

Results

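Collagens are the triple-helical proteins that form the fibres, sheets and anchors of the extracellular matrix. The 44 collagen chain genes described here are the rows of the count table whose symbol has the form Col, a type number, the letter a and a chain number, out of 54232 genes. They were divided into 11 fibrillar collagens, 8 basement membrane collagens and 25 others by the protein they encode. These classes were chosen with earlier results of these data known. The tissue was the lacrimal gland, which secretes the watery part of tears, of C57BL/6J females fed ad libitum. The libraries come from 3 ages, with 3 libraries each at 2, 12 and 24 months (the titles of the youngest read 8W), and all 9 are from this inbred strain, with no allele or treatment named. The title of the series places it in a study of ectopic lymphoid structures in the old gland.

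Each collagen molecule is built from chains that are made in the endoplasmic reticulum, hydroxylated, wound into a triple helix and secreted. Fibrillar collagens, led by types I and III, assemble outside the cell into the banded fibrils of the stroma, where fibroblasts are the usual source. Type IV collagen forms the sheet-like network of the basement membranes that underlie the acini and ducts of a gland and surround its blood vessels. Other collagens link these structures: type VI forms beaded filaments, type VII anchors epithelial basement membranes to the stroma, and type XVII spans the cell membrane at hemidesmosomes.

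Libraries held 40516863 to 42573877 counts, of which collagens took 0.0139 to 0.0331%. Levels are given as CPM, counts scaled to a fixed library total, after TMM scaling, which aligns libraries on the bulk of their genes, and per library in the order of replicates 1, 2 and 3. Levels of different genes are compared only as CPM per kb of transcript. Nothing in the labels ties each library to a mouse of its own, so p-values here cover only the spread between these libraries, which may be technical. Some libraries stood apart. In 24-month replicate 3 the largest collagen count was found (13616, against 5904 to 8639 in the other 8), and 21 of the 30 tested collagens had their highest level of all 9 libraries there. In 2-month replicate 2 the smallest was found, and 10 of the 30 had their lowest level there. Transcripts of salivary glands (5 markers) summed to 845 CPM in 2-month replicate 3, 379 CPM in 12-month replicate 2 and 252 CPM in 24-month replicate 2, against at most 71.0 CPM in the other 6. Transcripts of skeletal muscle (5 markers) summed to 26.2 and 50.1 CPM in 12-month replicates 1 and 3, against at most 1.10 CPM elsewhere. Acinar markers (4 genes) summed to 2647 to 3319 CPM in every library.

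Of the 44 collagens, 30 had enough counts to be tested: 7 of 11 fibrillar, 8 of 8 basement membrane and 15 of 25 other collagens. Genes were called at a Benjamini-Hochberg adjusted p under 0.05, taken over all 14944 tested genes, from the quasi-likelihood F test of edgeR. Collagens followed no single course with age. The main type IV chain Col4a1 and the hemidesmosome collagen Col17a1 were lower at 12 than at 2 months and higher again at 24 than at 12 months, while the type VI chains Col6a1 and Col6a2, Col15a1 and Col5a3 were higher at 24 than at 2 months. The anchoring fibril collagen Col7a1 alone was lower at 24 than at 2 months. Neither the type I chains nor Col3a1, which hold most of the fibrillar RNA, passed the test in any comparison. In bulk tissue, fewer cells of a type and less RNA per cell cannot be told apart.

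At 12 against 2 months, 0 of the 30 tested collagens were called higher, against 5.41% of all tested genes, and 2 were called lower (6.67%), against 2.52%. Without adjustment, 0 were higher and 6 lower at p under 0.05, against 1938 and 1523 of the 14944 tested genes. DESeq2 called 0 higher and 4 lower, with no share of all genes given here. At 24 against 2 months, 4 were higher (13.3%), against 9.82% of all tested genes, and 1 was lower (3.33%), against 7.56%. At 24 against 12 months, 4 were higher (13.3%), against 2.79%, and 0 were lower, against 1.6%. Without adjustment, 15 were higher and 1 lower at p under 0.05 there, against 1488 and 1335 of the 14944 tested genes. DESeq2 called 10 higher and 0 lower there, with no share of all genes given here. Over the 3 ages together, 8 of 30 were called, against 17.0% of all tested genes. With 30 genes, each share of collagens called at the adjusted p rests on a handful of calls. The comparisons share libraries: the 12-month libraries serve as the older group in one and as the younger group in another.

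The median log2 fold change of the 30 collagens was -0.10 at 12 against 2 months, 0.38 at 24 against 2 months and 0.64 at 24 against 12 months, while that of all tested genes was 0.01, 0.01 and -0.02. At 24 against 12 months 26 of 30 fold changes were positive, against 7123 of all 14944 tested genes. All 7 tested fibrillar genes were among the 26. The genes share libraries, so their signs are not separate observations, and 21 of the 30 were highest in 24-month replicate 3. Scaling by library totals alone moved the median of all genes to 0.31 in both comparisons with 2 months. The collagen median was then 0.21 at 12 against 2 months, with its sign turned round, and 0.70 at 24 against 2 months.

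**Figure D1:**
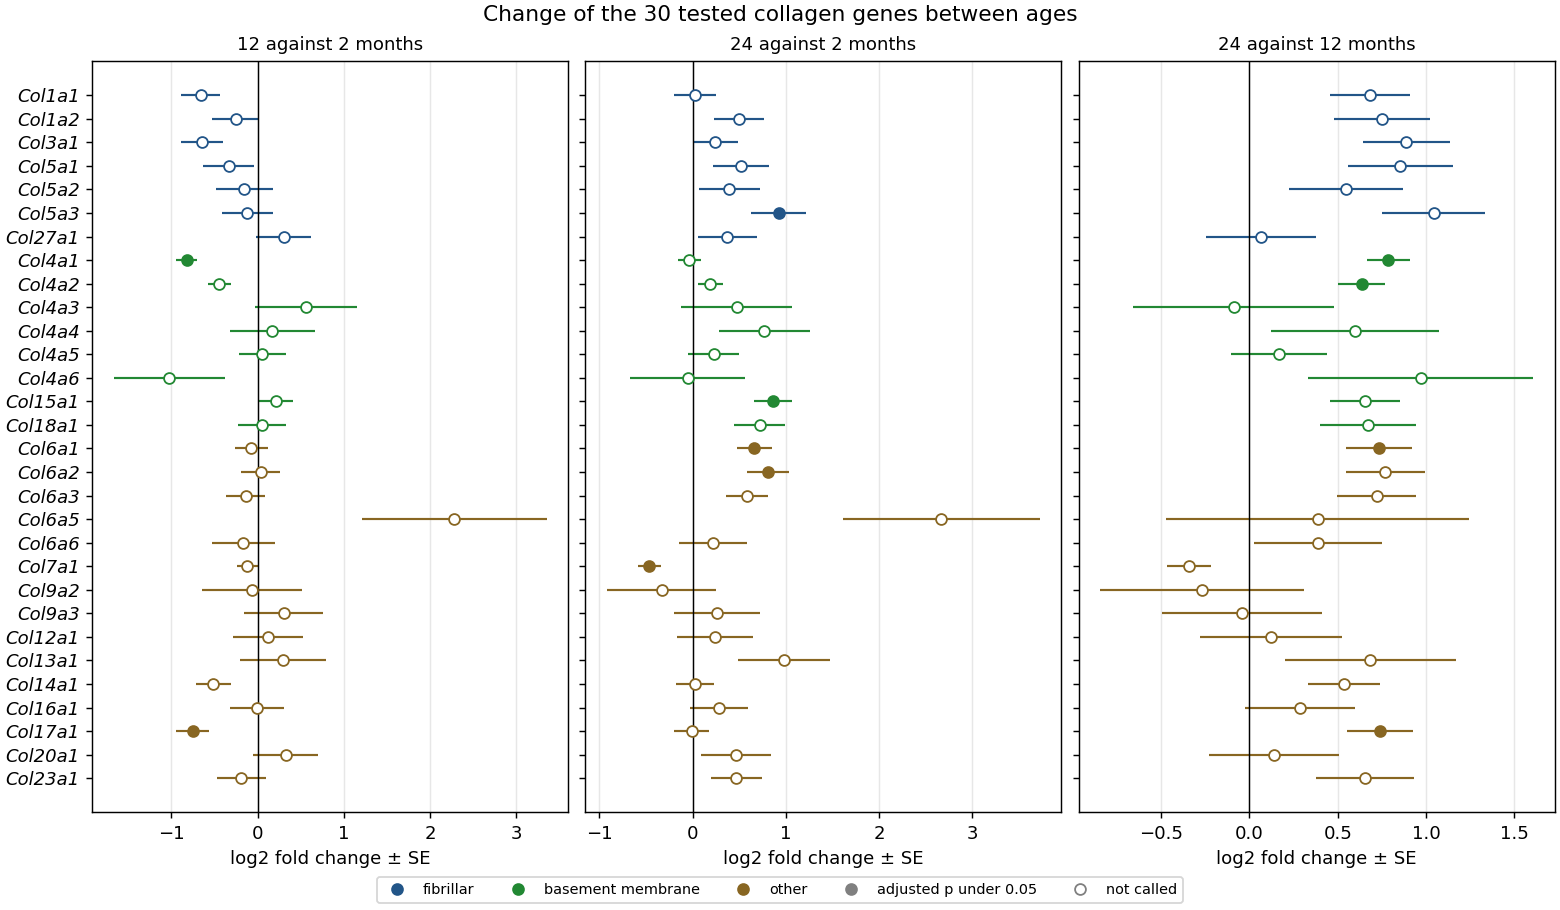
Log2 fold change with its SE for each of the 30 tested collagens, with the older age over the younger in each panel. Filled points passed the adjusted p of 0.05 and open points did not: 2 genes are filled at 12 against 2 months, 5 at 24 against 2 months and 4 at 24 against 12 months, where 26 of 30 points lie above 0.

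Levels per kb spanned a wide range. Col7a1 had the highest mean over the 9 libraries, 4.80 CPM per kb, but the order turned with age. Its means were 5.44 ± 0.215, 5.01 ± 0.423 and 3.95 ± 0.745 CPM per kb at 2, 12 and 24 months, and those of Col3a1 were 3.63 ± 1.32, 2.33 ± 0.0675 and 4.30 ± 1.24 (SD, n = 3 each), so that Col3a1 had the higher mean at 24 months, within the spread of the libraries. Over all libraries Col3a1 followed with 3.42, Col1a2 with 2.97, Col4a1 with 2.74 and Col1a1 with 2.40, and these neighbours in the order overlapped within the spread of the libraries. Next came Col15a1 (2.03), Col6a1 (1.97), Col4a2 (1.89) and Col6a2 (1.71). Every other tested collagen averaged at most 1.23 CPM per kb, the value of Col17a1. Of the 8 genes called in a comparison, Col5a3 (0.438 CPM per kb) was the one not among these 10.

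**Figure D2:**
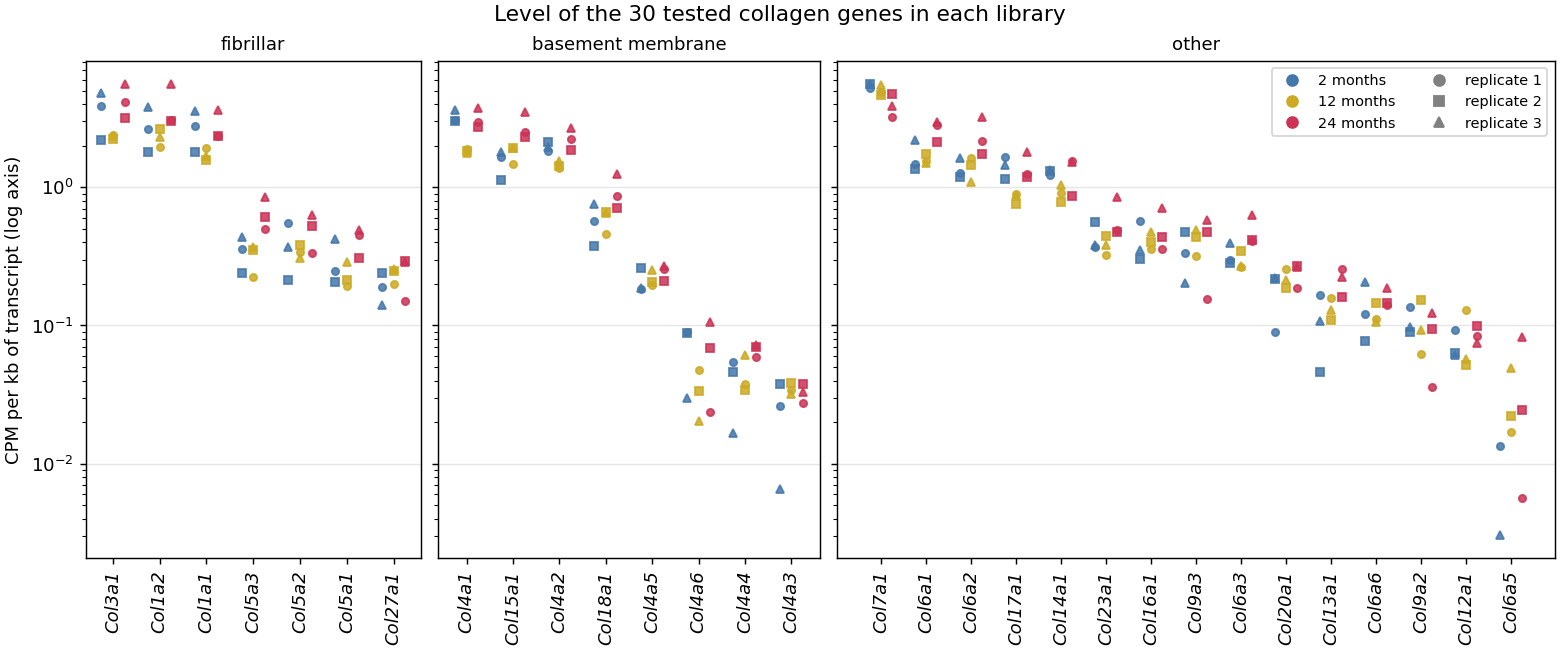
Level of each tested collagen in each library in CPM per kb of transcript, on a log axis, ordered within its class by the mean over libraries, with colours for age and shapes for replicate. Values of 0 are not drawn (Col6a5 in 2-month replicate 2). Col7a1 has the highest mean over the 9 libraries (4.80 CPM per kb), Col3a1 has the higher mean of the pair at 24 months, and the triangles of 24-month replicate 3 form the upper edge for 21 of 30 genes.

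Among the fibrillar collagens, the types I and III chains made up the bulk. Col3a1, the homotrimer of fine reticular fibres, held 29.2 to 37.6% of the fibrillar sum per kb in a library. Col1a2 held 24.9 to 34.3% and Col1a1 20.5 to 26.8%, the chains that combine into type I collagen, the main fibril protein of most connective tissue. The summed fibrillar level was 10.3 ± 3.45 CPM per kb at 2 months, 7.50 ± 0.231 at 12 months and 12.8 ± 3.74 at 24 months (SD, n = 3 libraries each). The 12-month libraries lay between 7.25 and 7.70, below all 24-month libraries (10.2 to 17.0) and within the range of the 2-month ones (6.69 to 13.6).

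Col1a1, the larger part of the type I molecule, was read at 16.5, 10.7 and 21.3 CPM at 2 months, 11.4, 9.36 and 9.93 at 12 months, then 13.9, 13.9 and 21.4 at 24 months. Col1a2, its partner chain, was read at 14.2, 9.54 and 20.2 CPM at 2 months, 10.5, 14.1 and 12.3 at 12 months, then 16.3, 16.0 and 29.7 at 24 months. Col3a1 had 21.4, 12.3 and 26.8 CPM at 2 months, 13.2, 12.5 and 13.1 at 12 months, then 22.9, 17.6 and 31.2 at 24 months. In all 3 genes the 2-month libraries were spread widely, with replicate 2 lowest and replicate 3 highest. The 24-month libraries lay above the 12-month libraries without overlap. Here and below, the share of all tested genes without such overlap is not given, so a lack of overlap is description only. Between 24 and 12 months the log2 fold changes were 0.68 (SE 0.23) for Col1a1, 0.75 (SE 0.27) for Col1a2 and 0.89 (SE 0.25) for Col3a1, with adjusted p-values in edgeR of 0.116, 0.146 and 0.0635. DESeq2 called Col1a1 and Col3a1 there, and Col1a1 as lower at 12 against 2 months, where edgeR gave -0.66 (SE 0.23) with an adjusted p of 0.103. At 24 against 2 months their log2 fold changes were 0.02, 0.50 and 0.25 with SEs of 0.23, 0.27 and 0.24, and adjusted p-values of 0.957, 0.232 and 0.535.

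Type V collagen lies inside type I fibrils and limits their width. Its Col5a3 chain was the one fibrillar gene called, with 3.06, 3.74 and 5.17 CPM at 24 months against 2.19, 1.47 and 2.66 CPM at 2 months. All 24-month libraries lay above all 2-month libraries, with a log2 fold change of 0.92 (SE 0.29, adjusted p = 0.0469 in edgeR). That call was close to the threshold and was lost when any of 2-month replicates 1, 2 and 3, 12-month replicate 2 or 24-month replicates 2 and 3 was left out (adjusted p 0.0561 to 0.186), and also without the salivary-rich libraries (1.18, adjusted p = 0.126) or the muscle libraries (0.93, adjusted p = 0.0508) and with limma voom (0.79, adjusted p = 0.0656). At 12 months Col5a3 had 1.38, 2.17 and 2.27 CPM, and at 24 against 12 months its log2 fold change of 1.04 (SE 0.29) had an adjusted p of 0.0646. Col5a1 and Col5a2, the chains of the common type V molecule, were not called in any comparison. Col5a1 averaged 2.45 ± 0.955, 1.94 ± 0.411 and 3.51 ± 0.814 CPM at 2, 12 and 24 months, and Col5a2 averaged 2.50 ± 1.11, 2.26 ± 0.247 and 3.29 ± 0.992 CPM (SD, n = 3 each).

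The remaining fibrillar genes belong mostly to cartilage. Col27a1, found chiefly in cartilage, had 1.08 to 2.25 CPM over the 9 libraries and was not called. Col2a1, the main cartilage collagen, had 0 counts in every library, which allows at most 0.0604 to 0.0881 CPM in a library (3 counts, counting error only). Col11a1, Col11a2 and Col24a1 had at most 12 counts in a library and were not tested. Markers of cartilage and bone were likewise near 0, with a sum of 5 genes of at most 0.142 CPM.

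The upstream sequences of 3 called genes are shown because they stand for the classes described and lie wholly outside annotated exons. Each stretch is the 100 bases before the RefSeq start site on GRCm38.p6, 5′ to 3′ on the strand of the gene, and capitals mark GGGCGG, the core of the GC box, on either strand (CCGCCC on the opposite one). Col5a3, minus strand, lies at chr9:20815068-20815167, Col7a1, plus strand, at chr9:108953486-108953585 and Col15a1, plus strand, at chr4:47207912-47208011.
Col5a3: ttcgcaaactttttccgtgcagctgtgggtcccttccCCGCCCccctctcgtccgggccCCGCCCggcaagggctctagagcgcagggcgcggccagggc
Col7a1: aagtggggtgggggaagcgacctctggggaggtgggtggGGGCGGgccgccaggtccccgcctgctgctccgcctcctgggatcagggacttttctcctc
Col15a1: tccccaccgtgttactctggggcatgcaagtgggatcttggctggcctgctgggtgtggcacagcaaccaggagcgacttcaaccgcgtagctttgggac
These stretches hold 2, 1 and 0 matches. In the 250 bases upstream, GGGCGG was present on one strand or the other in 22 of 38 collagen windows (57.9%, from 35 genes), against 32.7% of the 32851 windows of all genes. TATAAA was present in 5 of the 38 (13.2%), against 12.4%, and CCAAT in 13 of the 38 (34.2%), against 33.8%. Collagen windows had a median GC content of 59%, against 52.4% for all windows. A match is a description of these letters and not a bound site.

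Basement membrane collagens were led by type IV. The summed level of this class was 7.65 ± 0.654 CPM per kb at 2 months, 5.97 ± 0.408 at 12 months and 9.53 ± 1.90 at 24 months (SD, n = 3 each). The 12-month libraries (5.50 to 6.25) lay below both other ages (7.07 to 8.36 at 2 months and 7.9998 to 11.7 at 24 months). The log2 ratio of 12 to 2 months was -0.36, and -0.05 when libraries were scaled by their totals alone. For the type IV genes by themselves it was -0.62.

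Col4a1 and Col4a2 encode the chains of the type IV network present in nearly all basement membranes. Their genes lie head to head on chromosome 8, so that a single short stretch holds both starts, and this stretch is shown because both transcripts were higher at 24 than at 12 months. It is chr8:11312801-11312830 on GRCm38.p6, plus strand, with the start of Col4a2 (rightward) and the start of Col4a1 (leftward) in capitals, 21 bases apart.
Col4a1 and Col4a2: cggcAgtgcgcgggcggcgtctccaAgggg
The annotated transcripts overlap by 22 bases there, and the strand setting of the counting is not given in the sources used here.

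Col4a1 had 20.4, 19.9 and 24.0 CPM at 2 months, 12.5, 12.2 and 11.7 at 12 months, then 19.7, 18.2 and 24.8 at 24 months. All 12-month libraries lay below all others, and those of 2 and 24 months overlapped. The log2 fold change was -0.82 (SE 0.12, adjusted p = 0.00266 in edgeR) at 12 against 2 months and 0.79 (SE 0.12, adjusted p = 0.00425) at 24 against 12 months. Leaving out any single library kept both calls. The fall at 12 months missed the threshold without the 3 libraries rich in salivary transcripts (-0.74, adjusted p = 0.0722) and with library totals alone (-0.52, adjusted p = 0.0795). The rise at 24 against 12 months missed it without both libraries with muscle transcripts (0.79, adjusted p = 0.129), where a single 12-month library is left and is assumed to vary like the others.

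Col4a2 had 11.8, 13.7 and 12.6 CPM at 2 months, 8.85, 9.24 and 9.93 at 12 months, then 14.4, 11.9 and 17.2 at 24 months. Its 12-month libraries again lay below all others. It rose by 0.63 at 24 against 12 months on the log2 scale (SE 0.13, adjusted p = 0.0198 in edgeR), a call lost without 12-month replicate 1 or 2 or 24-month replicate 3 (adjusted p 0.0680 to 0.0780), without the salivary-rich libraries (0.76, adjusted p = 0.0898) and without the muscle libraries (0.66, adjusted p = 0.259). It was also lost with library totals alone (0.64, adjusted p = 0.0905). At 12 against 2 months its log2 fold change was -0.44 (SE 0.13, adjusted p = 0.0649), and DESeq2 called it lower.

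The summed markers of pericytes and smooth muscle and of myoepithelium were lowest at 12 months, while their members differed. Of 7 markers of pericytes and smooth muscle, cells of the vessel wall, Acta2 and Myh11 were called lower at 12 against 2 months and higher at 24 against 12 months. Among all tested genes, 2.52% were lower in the first comparison and 2.79% higher in the second. The 7 markers summed to 112 to 142 CPM at 2 months, 74.4 to 84.7 CPM at 12 months and 118 to 135 CPM at 24 months. Without Acta2 and Myh11 the other 5 summed to 9.54 to 12.8, 8.67 to 11.8 and 11.7 to 18.0 CPM at 2, 12 and 24 months, with overlap between 2 and 12 months, and Kcnj8, Cspg4 and Pdgfrb had positive log2 fold changes at 12 against 2 months (1.17, 0.79 and 0.07, none called). Myoepithelial markers (5 genes, Acta2 among them) summed to 115 to 137 CPM at 2 months, 81.4 to 88.2 CPM at 12 months and 119 to 132 CPM at 24 months. Without Acta2, which takes most of that sum, they summed to 40.3 to 48.9, 33.3 to 36.5 and 32.3 to 57.1 CPM. The 12-month libraries lay below those of 2 months there, and Krt5, Krt14 and Trp63 were not called. Of 8 endothelial markers 0 were called in edgeR in each comparison, against 1.6 to 9.82% of all tested genes in each direction. The endothelial sum was 21.8 to 27.3 CPM at 2 months, 23.1 to 28.8 CPM at 12 months and 26.7 to 32.7 CPM at 24 months. The part of these cells in the course of Col4a1 and Col4a2 was not tested.

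**Figure D3:**
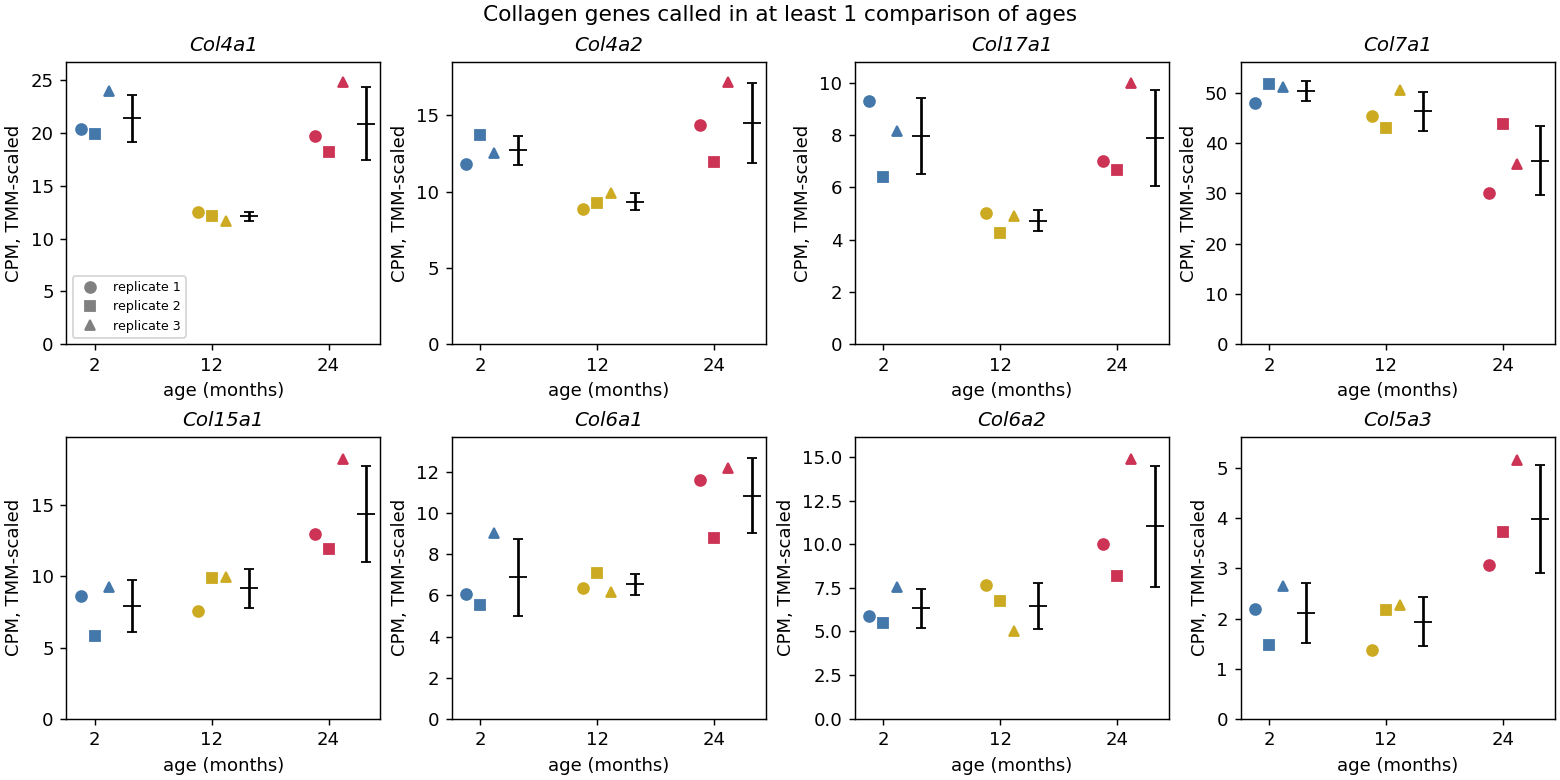
CPM after TMM scaling in each library for the 8 collagens called in at least 1 comparison, by age in months, with shapes for replicates and a black bar for mean and SD (n = 3). Col4a1, Col4a2 and Col17a1 are low at 12 months in all 3 libraries, Col7a1 is lowest at 24 months, and Col15a1, Col6a1, Col6a2 and Col5a3 are highest there.

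The other type IV chains replace Col4a1 and Col4a2 in particular membranes, such as those of the kidney filter, and were scarce. Col4a5 had 1.196 to 1.75 CPM over the 9 libraries, Col4a4 0.170 to 0.725, Col4a6 0.136 to 0.705 and Col4a3 0.0566 to 0.327. None was called in any comparison. The pairs Col4a3 with Col4a4 and Col4a5 with Col4a6 also lie head to head, with start sites 72 and 1309 bases apart.

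Col15a1, a collagen of the zone where basement membranes meet the stroma, took 15.9 to 31.1% of the sum of the class per kb. It had 12.9, 11.9 and 18.2 CPM at 24 months against 8.62, 5.81 and 9.25 CPM at 2 months. All 24-month libraries lay above all 2-month libraries, with a log2 fold change of 0.86 (SE 0.20, adjusted p = 0.0133 in edgeR). Without 2-month replicate 2 it was 0.69 (adjusted p = 0.0570), and without 24-month replicate 3 it was 0.66 (adjusted p = 0.0511). At 12 months the level was 7.57, 9.91 and 9.98 CPM, and the change at 24 against 12 months was 0.65 (SE 0.20, adjusted p = 0.0890).

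Col18a1, its relative and the source of the fragment endostatin, had 4.84, 3.96 and 6.93 CPM at 24 months against 3.21, 2.11 and 4.24 CPM at 2 months. These overlapped, and the log2 fold change of 0.72 (SE 0.28) had an adjusted p of 0.0951 in edgeR. Slc19a1, on the other strand, overlaps this gene over 8825 bases and had 90 to 183 counts per library, beside 72 to 344 for Col18a1. Without a known strand setting, reads from the shared stretch cannot be told apart.

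Among the other collagens, 2 of the 5 tested type VI chains were higher at 24 than at 2 months, against 9.82% of all tested genes. Its chains Col6a1, Col6a2 and Col6a3 combine into the beaded filaments that surround cells and link them to the stroma. Col6a1 had 6.05, 5.55 and 9.03 CPM at 2 months, 6.35, 7.09 and 6.16 CPM at 12 months, then 11.6, 8.78 and 12.2 CPM at 24 months. The 24-month libraries lay above all 12-month libraries and overlapped with those of 2 months through replicate 3 of that age. It was called in both comparisons, with log2 fold changes of 0.66 (SE 0.19, adjusted p = 0.0319 in edgeR) against 2 months and 0.73 (SE 0.19, adjusted p = 0.0473) against 12 months. The first call was lost without 2-month replicate 1 or 2 or 24-month replicate 1 or 3 (adjusted p 0.0772 to 0.126). The second was lost without any of the 12-month libraries, 2-month replicate 1 or 24-month replicate 1 or 3 (adjusted p 0.0552 to 0.137). Without the muscle libraries the log2 fold changes were 0.67 and 0.63 (adjusted p 0.0505 and 0.473), and with limma voom 0.48 and 0.63 (adjusted p 0.104 and 0.0799). With library totals alone the second was 0.73 (adjusted p = 0.136).

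Col6a2 had 5.91, 5.49 and 7.56 CPM at 2 months, 7.63, 6.72 and 5.04 CPM at 12 months, then 10.004, 8.16 and 14.9 CPM at 24 months. All 24-month libraries lay above all others, with the highest in replicate 3. At 24 against 2 months it rose by 0.80 on the log2 scale (SE 0.23, adjusted p = 0.0297 in edgeR), a call lost without 2-month replicate 1 or 2 or 24-month replicate 3 (adjusted p 0.0791 to 0.124) and with limma voom (0.59, adjusted p = 0.0940). The change of 0.77 (SE 0.22) at 24 against 12 months had an adjusted p of 0.0763.

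Col6a3, the longest chain of the type VI molecule, had 3.01, 2.85 and 3.96 CPM at 2 months, 2.69, 3.50 and 2.73 CPM at 12 months, then 4.14, 4.19 and 6.34 CPM at 24 months. Those of 24 months lay above all others, but its log2 fold changes of 0.58 (SE 0.22) against 2 months and 0.72 (SE 0.22) against 12 months had adjusted p-values of 0.0952 and 0.0934 in edgeR. The chains that can take the place of Col6a3 were scarcer. Col6a6 had 0.675 to 1.81 CPM and was not called. Reads of Col6a5 numbered 5, 0 and 1 at 2 months, 7, 10 and 20 at 12 months, then 2, 10 and 38 at 24 months, and the gene passed the filter on low counts through the older ages alone. Col6a4, not tested, had 38 counts in 24-month replicate 2 and at most 7 in each other library.

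Col7a1, the anchoring fibril collagen, was lower at 24 than at 2 months. It had 48.0, 51.7 and 51.2 CPM at 2 months, 45.4, 43.0 and 50.6 CPM at 12 months, then 30.04, 43.8 and 35.8 CPM at 24 months. No 24-month library reached the 2-month range, and the 12-month libraries overlapped with both. The log2 fold change at 24 against 2 months was -0.46 (SE 0.12, adjusted p = 0.0250 in edgeR). It kept its sign with library totals alone (-0.15, adjusted p = 0.526), where the call was lost. The call was also lost without 2-month replicate 2 or 3 or 24-month replicate 1 or 3 (adjusted p 0.0687 to 0.0838), and without the salivary-rich libraries (-0.59, adjusted p = 0.0546).

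Col7a1 took 22.5 to 44.2% of the summed level of the other collagens, a sum that was 13.4 ± 0.863 CPM per kb at 2 months, 12.1 ± 0.273 at 12 months and 14.7 ± 2.19 at 24 months (SD, n = 3 each). The log2 ratio of this sum was -0.15 at 12 against 2 months, and 0.15 with library totals alone. Col7a1, which fell, and the type VI chains that rose at 24 against 2 months are both in this sum. Of collagen RNA per kb, the class made up 43.3 ± 4.34% at 2 months, 47.3 ± 1.23% at 12 months and 40.007 ± 2.53% at 24 months.

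**Figure D4:**
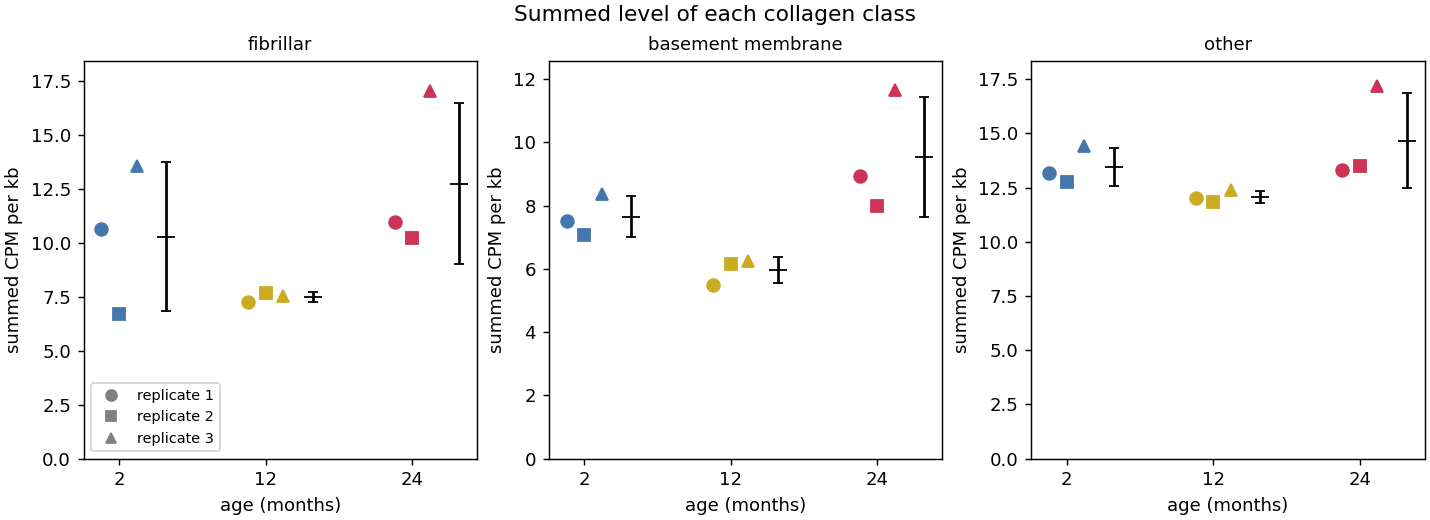
Summed CPM per kb of fibrillar, basement membrane and other collagens in each library by age in months, with shapes for replicates and a black bar for mean and SD (n = 3). Basement membrane sums at 12 months (5.50 to 6.25) lie below those of both other ages, and 24-month replicate 3 is highest in each panel.

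Col17a1, which anchors basal epithelial cells to their basement membrane, also had its low at 12 months. It had 9.29, 6.40 and 8.15 CPM at 2 months, 5.01, 4.25 and 4.91 at 12 months, then 7.02, 6.65 and 9.99 at 24 months. All 12-month libraries lay below all others, while those of 2 and 24 months overlapped. The log2 fold change was -0.75 (SE 0.19, adjusted p = 0.0304 in edgeR) at 12 against 2 months and 0.74 (SE 0.19, adjusted p = 0.0450) at 24 against 12 months. The first call was lost without 12-month replicate 1 or 2 or 2-month replicate 1 or 3 (adjusted p 0.0680 to 0.137). The second was lost without any 12-month library, 2-month replicate 3 or 24-month replicate 1 or 3 (adjusted p 0.0516 to 0.149). Without the salivary-rich libraries the log2 fold changes were -0.67 and 0.79 (adjusted p 0.310 and 0.223), and without the muscle libraries -0.91 and 0.91 (adjusted p 0.126 and 0.266), in fits with fewer libraries. With library totals alone they were -0.46 and 0.76 (adjusted p 0.221 and 0.165), and the second call was also lost with limma voom (0.68, adjusted p = 0.0583) and with only the 6 libraries compared (0.75, adjusted p = 0.0578). The basal epithelial markers Krt5, Krt14 and Trp63 had log2 fold changes of -0.40, -0.42 and 0.03 at 12 against 2 months, none called, and the part of basal cells in this result was not tested.

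Collagens that sit on the surface of fibrils were mostly at low levels. Col14a1, the most abundant of them, had 7.90, 8.46 and 8.63 CPM at 2 months, 5.85, 5.03 and 6.66 at 12 months, then 10.004, 5.55 and 9.87 at 24 months. The 12-month libraries lay below those of 2 months without overlap, but the log2 fold change of -0.51 (SE 0.20) had an adjusted p of 0.153 in edgeR. Col16a1 (1.59 to 3.68 CPM over the 9 libraries), Col12a1 (0.593 to 1.49), Col20a1 (0.448 to 1.35), Col9a3 (0.471 to 1.75) and Col9a2 (0.105 to 0.450) were not called either. Col20a1 shares 741 bases with the same-strand transcript BX649560.1, which had 35 to 109 counts beside 18 to 66 for Col20a1, and Col9a3 shares 234 bases with Tcfl5 on the other strand.

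The transmembrane collagens Col23a1 (1.83 to 4.77 CPM) and Col13a1 (0.147 to 0.812 CPM) were not called. Of Col23a1 all 24-month libraries (2.78, 2.68 and 4.77 CPM) lay above all 12-month ones (1.83, 2.51 and 2.16 CPM), with a log2 fold change of 0.66 (SE 0.28, adjusted p = 0.218 in edgeR). Besides Col6a4, 9 of the other collagens were not tested: Col8a1, Col8a2, Col9a1, Col10a1, Col19a1, Col22a1, Col25a1, Col26a1 and Col28a1 had at most 17 counts in a library. Among them Col19a1 had 2, 6 and 7 counts at 12 months and 1 count in the other 6 libraries together.

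Chains that assemble into a single molecule were also compared by their ratio. Col6a1 stood to Col6a2, per kb, at 1.22 ± 0.116, 1.18 ± 0.222 and 1.16 ± 0.204 at 2, 12 and 24 months (SD, n = 3 each). Col4a1 stood to Col4a2 at 1.65 ± 0.227, 1.27 ± 0.115 and 1.41 ± 0.0749. Col1a1 stood to Col1a2 at 1.001 ± 0.0504, 0.769 ± 0.194 and 0.734 ± 0.0710. Over 6 such pairs, an exact permutation test of the log2 ratio across the 3 ages gave its smallest p for Col4a1 and Col4a2 (0.0464, adjusted over the 6 pairs 0.279), and 0.146 for Col1a1 and Col1a2 (adjusted 0.293). This test was added after the data were seen, and a p that misses the threshold does not show that the ratios are equal.

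Partner genes of the collagens were read from 5 lists which, like the marker lists, were chosen with earlier results of these data known. Of 18 tested genes that trim procollagen or organise fibrils, 8 rose at 24 against 2 months, with a median log2 fold change of 0.84, and 0 fell, against 9.82% higher among all tested genes. Bgn, the small proteoglycan biglycan, had 37.7, 39.7 and 52.0 CPM at 24 months against 23.8, 24.9 and 30.8 CPM at 2 months, a log2 fold change of 0.70 (adjusted p = 0.00496 in edgeR). Tnxb, a tenascin that binds fibrils, rose by 2.05 on the log2 scale, Dpt, dermatopontin, by 1.83 and Fbln1, fibulin 1, by 1.10 (adjusted p 0.00878, 0.0121 and 0.0181). These 4 genes were picked for the smallest p in this comparison. That all their 24-month libraries lay above all 2-month libraries is therefore no separate result. Of the 18, 5 rose at 24 against 12 months, against 2.79% of all tested genes, led by Bgn (0.66, adjusted p = 0.0155), Sparc (0.61, adjusted p = 0.0364), Podn (0.96, adjusted p = 0.0367) and Dcn (0.73, adjusted p = 0.0385). Without 1 library or under another setting, 3 to 8 of the list were called higher at 24 against 2 months and 0 to 14 at 24 against 12 months.

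Sparc, which encodes a protein that binds type IV and fibrillar collagens as they are secreted, was the one gene of that list called at 12 against 2 months. Of all tested genes, 5.41% were called higher and 2.52% lower there. Sparc had 21.5, 27.7 and 25.7 CPM at 12 months against 39.5, 44.5 and 48.3 CPM at 2 months, with a log2 fold change of -0.82 (adjusted p = 0.00593 in edgeR). Sparc at 24 months had 32.8, 34.0 and 47.3 CPM, so that its low lay at 12 months, as did that of Col4a1.

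Genes of collagen synthesis and folding had median log2 fold changes of 0.05 at 12 against 2 months, 0.17 at 24 against 2 months and 0.23 at 24 against 12 months. Of 21 tested, P4ha1, a subunit of the prolyl hydroxylase that stabilises the triple helix, was the one called, and it was higher at both older ages. Among all tested genes, 5.41% were higher at 12 against 2 months and 9.82% at 24 against 2 months. It had 3.64, 3.38 and 3.59 CPM at 2 months, 4.70, 5.68 and 4.98 CPM at 12 months, then 6.68, 6.65 and 7.51 CPM at 24 months. Against 2 months the log2 fold change was 0.53 at 12 months (adjusted p = 0.0423 in edgeR) and 0.97 at 24 months (adjusted p = 0.00155). Between 24 and 12 months 0 of the 21 were called in edgeR, against 2.79% higher and 1.6% lower among all tested genes.

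Partners of collagen in the basement membrane changed in 3 of 20 tested genes at 24 against 2 months, all higher, a share near the 9.82% of all tested genes. Under other settings the count was 1 to 5. These were the nidogens Nid2 (0.91, adjusted p = 0.00645 in edgeR) and Nid1 (0.87, adjusted p = 0.0251), which bridge laminin and type IV collagen, and the laminin chain Lama1 (1.13, adjusted p = 0.00839). Nid2 had 9.79, 9.65 and 9.56 CPM at 24 months against 5.96, 4.73 and 4.75 CPM at 2 months. Lama1 was also higher at 12 than at 2 months (0.84, adjusted p = 0.0496), and Hspg2, the proteoglycan perlecan, was higher at 24 than at 12 months (0.66, adjusted p = 0.0308).

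Receptors and uptake proteins for collagen rose in 4 of 10 tested genes at 24 against 2 months, against 9.82% of all tested genes. Cd44, a receptor for hyaluronan and collagen on many immune and stromal cells, had 1.84, 1.17 and 1.47 CPM at 2 months, 4.65, 6.42 and 3.89 CPM at 12 months, then 4.16, 5.20 and 5.88 CPM at 24 months. It was called against 2 months at 12 and at 24 months (1.73 and 1.76, adjusted p 0.00207 and 0.00105 in edgeR). Mrc1, the mannose receptor of macrophages, which takes up collagen fragments, rose by 1.42 (adjusted p = 0.00292), Ddr2, a tyrosine kinase receptor for fibrillar collagen, by 1.15 (adjusted p = 0.00754) and Lair1, an inhibitory collagen receptor of leukocytes, by 1.54 (adjusted p = 0.0255), on the log2 scale at 24 against 2 months. Mrc1 and Ddr2 were also called at 24 against 12 months (1.02 and 1.03, adjusted p 0.0291 and 0.0277).

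The 11 TGF-beta genes tested were growth factors, their receptors, binding proteins and targets. Of these, Tgfb1, Tgfb3 and the target Tgfbi were higher at 24 against 2 months (0.58, 0.77 and 0.84, adjusted p 0.0403, 0.0323 and 0.0106 in edgeR), against 9.82% of all tested genes. The count was 0 to 3 under other settings. Tgfb1 was also higher at 12 than at 2 months (0.84, adjusted p = 0.0131).

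Fibroblast markers were higher at 24 months too. Of 10, 9 were called higher at 24 against 2 months, against 9.82% of all tested genes, and 6 at 24 against 12 months, against 2.79%, and 4 of the 10 are also in the fibril assembly list. Their sum was 58.2 to 90.8 CPM at 2 months, 66.9 to 82.9 CPM at 12 months and 110 to 169 CPM at 24 months, with the highest value in 24-month replicate 3. The part of fibroblasts in the rise of the type VI chains, Col15a1 and Col5a3 was not tested. All 3 B cell markers and all 5 adipocyte markers were called higher at both older ages than at 2 months. Among all tested genes, 5.41% were higher at 12 months and 9.82% at 24 months. B cell markers summed to at most 0.176 CPM at 2 months, 10.02 to 83.4 CPM at 12 months and 8.72 to 13.3 CPM at 24 months. Adipocyte markers summed to at most 1.69 CPM at 2 months, 10.01 to 34.0 CPM at 12 months and 9.18 to 28.6 CPM at 24 months. Schwann cell markers (4 genes) were not called, with sums of 35.5 to 52.1 CPM over all libraries.

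**Figure D5:**
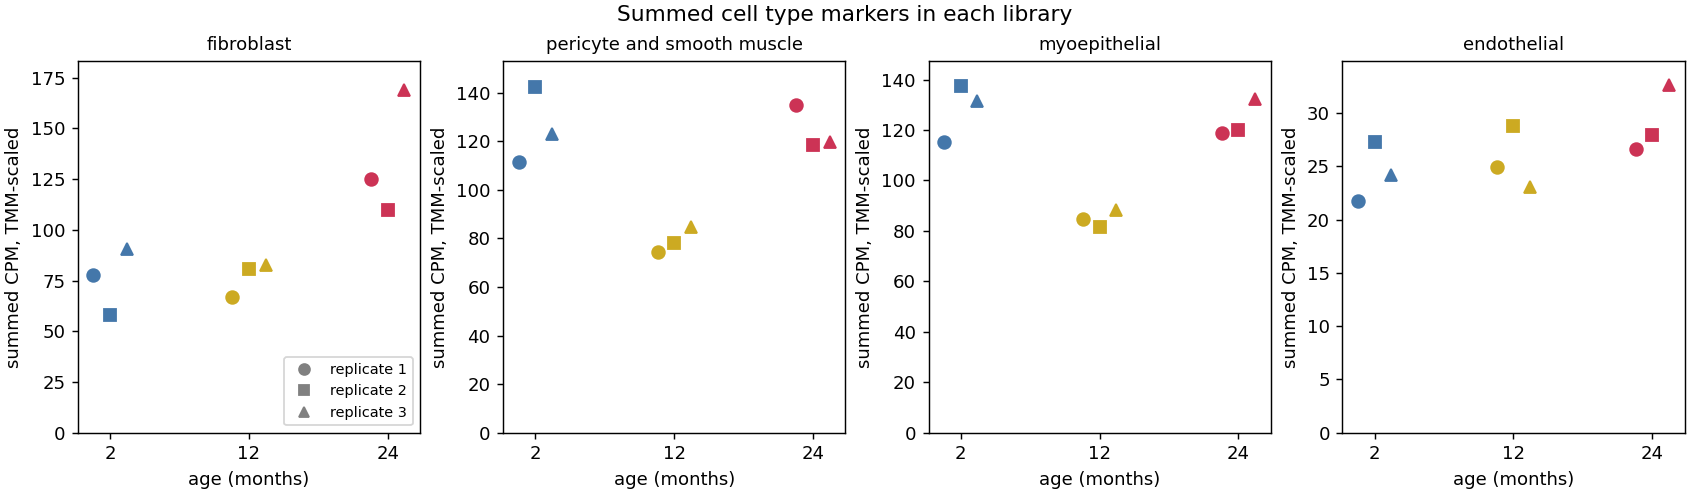
Summed CPM of fibroblast, pericyte and smooth muscle, myoepithelial and endothelial markers in each library by age in months, with shapes for replicates. Fibroblast sums are highest at 24 months (110 to 169 CPM), and the pericyte and smooth muscle sums are lowest at 12 months (74.4 to 84.7 CPM), with Acta2 and Myh11 making up most of them.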

How the data were processed

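RNA of 9 lacrimal gland libraries was sequenced in pairs of 100 bp, per the labels' protocols. The authors deposited whole-number read counts per gene and log2 values. The submitters' processing notes name STAR, HTSeq, DESeq2, cutadapt and FastQC and the build GRCm38. Versions, annotation and strand setting: not given in the sources used here. All of the authors' log2 values matched log2(count / DESeq2 size factor + 1) within 1e-06 when recomputed, and were not used further. Symbols came from GENCODE M21 for 54165 of 54232 genes.

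The whole table was fitted with edgeR 4.0.16 (R 4.3.3): filterByExpr with a minimum count of 10, TMM scaling, quasi-likelihood F test, all 9 libraries in 1 model, Benjamini-Hochberg over 14944 genes. The procedure was tested on simulated data. CPM per kb used the longest protein-coding basic transcript of GENCODE M21. Promoter windows came from RefSeq (GRCm38.p6), matched by symbol for 35 of 44 genes. A depth of 40516863 to 42573877 counts leaves genes of a few counts untested. Replicates differed by far more than sampling noise (chi-square per gene 23.6 to 208), so none was counted as a duplicate.

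Named genes were every called collagen, 14 collagens fixed by name whether called or not, and up to 4 called genes with the smallest p from each partner list and comparison. TGF-beta genes, chain ratios, marker sums without Acta2 and Myh11 and the counts of partner lists under other settings were added after the data were seen. The members, classes, partner and marker lists were chosen with earlier results of these data known. Alternatives were RLE scaling, library totals, other count filters, DESeq2 1.42.0, limma 3.58.1 voom with sample weights, only the 6 libraries compared, the replicate number as a block, and libraries left out. Tables were made with Python 3.11.15, numpy 2.4.6, pandas 2.3.3 and scipy 1.17.1 and drawn with matplotlib 3.10.9.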

Additional observations from a re-analysis of the deposited data

How the results depend on the processing

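With 3 libraries an age, most counts of called collagens moved by more than 1.5 times under some setting. At 12 against 2 months the 2 lower genes became 4 with DESeq2, 6 with no filter on low counts, 0 with library totals alone, 1 without the 2 libraries with muscle transcripts (12-month replicates 1 and 3), 0 without the 3 libraries rich in salivary transcripts, and 1 to 4 with each library left out. At 24 against 2 months the 4 higher genes became 1 with limma voom, 8 with no filter, 2 without the muscle libraries, and 0 to 4 with each library left out, with 0 without 24-month replicate 3 or 2-month replicate 2 and 1 without 2-month replicate 1. The 1 lower gene there became 0 with library totals and 0 without the salivary libraries, and 0 to 1 with each library left out. At 24 against 12 months the 4 higher genes became 10 with DESeq2, 14 with no filter, 1 with library totals, 0 without the muscle libraries, 2 without the salivary libraries, and 1 to 7 with each library left out, and the 0 lower genes became 0 to 1. With library totals alone, calls among all tested genes were 1614 higher and 80 lower at 12 against 2 months (808 and 377 with TMM). They were 2626 and 191 at 24 against 2 months (1467 and 1130), and 202 and 138 at 24 against 12 months (417 and 239). For the other settings, shares of all genes are not given here. The cause was not tested. Of 129 alternative values of the summed class levels 123 moved by less than the replicate spread. The others were the basement membrane log2 ratio at 12 against 2 months (-0.36, with library totals -0.048, type IV alone -0.62) and at 24 against 2 months (0.30, with library totals 0.60, type IV alone 0.055), and the ratio of other collagens at 12 against 2 months (-0.15, with library totals 0.15) and at 24 against 2 months (0.12, with library totals 0.41). No called gene changed sign under any of the 19 settings. Of values of named genes that were not called, 26 of 266, 23 of 209 and 0 of 228 changed sign in the 3 comparisons, and none of those was called.

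With the replicate block, the calls were 0 higher and 2 lower at 12 against 2 months, 3 and 1 at 24 against 2 months, and 4 and 0 at 24 against 12 months. Col5a3 at 24 against 2 months (adjusted p = 0.0508) and Col6a1 at 24 against 12 months (adjusted p = 0.0758) lost their calls there, and Col3a1 was called higher at 24 against 12 months. Libraries of the same number at different ages had correlations of their deviations of -0.154 to 0.061 (9 pairs), and those of different numbers -0.19 to 0.228 (18 pairs), so that the number alone was taken to be shared.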
